A study of Mus musculus with 12 samples.

Results

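The complement components and regulators followed here were 9 genes chosen by symbol, C1qa, C1qb, C1qc, C2, C4b, C3, C7, C3ar1 and Serping1, out of 17536 genes in the deposited table. All 9 were found, and all 9 passed the filter on low counts. The libraries came from heart RNA of ICR mice, which are outbred, at 10 weeks of age, in 4 groups of 3 libraries. The AOS-FMT group is labelled B with FMT of AOS at 10 mg/kg, the control-FMT group B with FMT of the control kind, the busulfan group busulfan at 20 mg/kg, and the control group control. Busulfan is an alkylating chemotherapy drug, and the series' design text states the aim as exploring what FMT does to a heart damaged by it. B is read here as busulfan, for which the labels of the FMT groups give no dose, and the abbreviations AOS and FMT are not spelled out in the labels. Nothing in the labels ties a replicate to a mouse of its own, and p-values cover only the spread between these libraries, which may be technical.

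Complement is a cascade of plasma proteins that marks microbes, dying cells and debris for removal. C1q, built from the products of C1qa, C1qb and C1qc, recognises the target and starts the classical pathway, whose next components C4 and C2 form the enzyme that cleaves C3, and C7 belongs to the terminal complex that inserts into membranes. The liver makes most of the C3, C4 and C2 in plasma, whereas C1q is made mainly by macrophages, and fibroblasts and mesothelial cells can also transcribe several of these genes. In bulk heart RNA, fewer cells of a type and less RNA per cell cannot be told apart.

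In GRCm38.p6, the assembly that mm10 denotes, the 3 C1q genes were the only annotated genes within 18719 bases of chromosome 4, with C1qb at 136880126 to 136886200, C1qc at 136889801 to 136892936 and C1qa at 136895916 to 136898844. C4b lies on chromosome 17 at 34728139 to 34743902 and C2 on chromosome 17 at 34862602 to 34882100, both in the class III part of the MHC, and C3 lies on the same chromosome at 57203967 to 57228136. C7 lies on chromosome 15 at 4987750 to 5063773, Serping1 on chromosome 2 at 84765360 to 84775444 and C3ar1 on chromosome 6 at 122847140 to 122856157. All 9 are annotated as protein-coding, while C4a, the near copy of C4b on chromosome 17 at 34809092 to 34823460, is annotated as a transcribed pseudogene. RefSeq promoter sequences of this build were at hand for 5 of the 9 genes, C1qb, C1qc, C3, C7 and C3ar1. The 250 bases before the start are shown for 2 C1q genes, which kept a nearly fixed ratio in all libraries, and for C3 and C7, which code for the central and a terminal component. They lie on the minus strand of chr4:136886201-136886450, chr4:136892915-136893164, chr17:57228137-57228386 and chr15:5063774-5064023 and read 5′ to 3′, with capitals for matches on either strand to 3 motifs. The start listed with the C1qc promoter lies inside the annotated gene, so the last 22 bases of its window belong to the gene as given above.
C1qb: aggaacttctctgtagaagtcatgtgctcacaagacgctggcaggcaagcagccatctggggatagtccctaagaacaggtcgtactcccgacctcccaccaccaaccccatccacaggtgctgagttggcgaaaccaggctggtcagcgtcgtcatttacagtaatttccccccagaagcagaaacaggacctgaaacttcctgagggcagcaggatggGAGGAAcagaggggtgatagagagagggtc
C1qc: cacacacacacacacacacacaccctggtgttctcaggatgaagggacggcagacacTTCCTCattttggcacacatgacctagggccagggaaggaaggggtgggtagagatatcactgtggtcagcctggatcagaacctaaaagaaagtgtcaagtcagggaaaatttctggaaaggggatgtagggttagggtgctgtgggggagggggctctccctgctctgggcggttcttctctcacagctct
C3: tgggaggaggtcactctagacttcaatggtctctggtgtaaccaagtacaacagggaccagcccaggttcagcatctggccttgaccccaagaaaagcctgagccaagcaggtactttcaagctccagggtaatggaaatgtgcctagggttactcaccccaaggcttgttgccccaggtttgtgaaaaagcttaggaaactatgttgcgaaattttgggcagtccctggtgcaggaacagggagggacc
C7: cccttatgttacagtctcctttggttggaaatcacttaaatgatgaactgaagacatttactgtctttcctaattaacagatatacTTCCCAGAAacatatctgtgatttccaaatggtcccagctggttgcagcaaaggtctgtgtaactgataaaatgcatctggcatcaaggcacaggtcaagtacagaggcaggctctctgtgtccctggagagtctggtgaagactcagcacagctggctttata
The motifs searched were GAGGAA, the box bound by the myeloid factor PU.1, TTCNNNGAA, the gamma-interferon activation site, and the core of the interferon-stimulated response element, GAAA and again GAAA with 2 bases of any kind between them. Both strands were searched, and no window held matches to more than 1 motif. Both C1q promoters held 1 PU box, 30 bases before the start on the forward strand in C1qb and 193 bases before it on the reverse strand in C1qc. Of 32851 mouse promoters of the same length, 23.3% held a PU box. The C7 promoter held 1 gamma-interferon activation site, 164 bases before the start, as did 7.02% of promoters. The response element core, present in 2.98% of promoters, was not in any of the 5 windows, and the C3 and C3ar1 windows held no match to the 3 motifs.

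Library totals ran from 11333650 to 14335688 estimated counts, with 15100 to 16090 genes counted, and the 13489 genes that passed the filter were tested. Some libraries stood apart from the others of their group. AOS-FMT replicate 2 held the highest level of 8 of the 9 members among the 12 libraries, and busulfan replicate 1 held the lowest of 7. Atrial muscle markers (Sln, Myl4, Myl7 and Bmp10) summed to 874, 8414 and 4521 CPM in AOS-FMT, 189, 14.2 and 1255 CPM in control-FMT, 8.18, 219 and 882 CPM in busulfan and 546, 5985 and 5462 CPM in control. CPM are estimated counts scaled to a common library total with TMM factors. Mesothelial markers, 10 of 10 in the file, were highest in AOS-FMT replicate 2 and control replicate 2, at 99.0 and 148 CPM, and stayed between 7.70 and 37.8 CPM in the other 10. The 6 heart muscle markers, such as Myh6, lay in the opposite direction to the complement genes in AOS-FMT against busulfan and in busulfan against control. They summed to 88023, 69369.7 and 74193 CPM in AOS-FMT, 91855, 95503 and 90985 CPM in control-FMT, 112419, 124881 and 101642 CPM in busulfan and 113045, 86414 and 74999 CPM in control. All 6 were lower in AOS-FMT than in busulfan (median log2 fold change -0.52). Each had an unadjusted p under 0.05 by edgeR, against 5.85% of all genes lower. All 6 were higher in busulfan than in control (median 0.29), and 0 were called in either comparison. The 5 erythroid markers lay in the same direction as the complement genes in these comparisons, with sums of 5727, 8474 and 6081 CPM in AOS-FMT, 4027, 3607 and 6524 CPM in control-FMT, 4755, 2511 and 3577 CPM in busulfan and 3183, 9233 and 14762 CPM in control. All 5 were higher in AOS-FMT than in busulfan (median 1.34) and lower in busulfan than in control (median -1.38), with 0 called by edgeR. In that order 1 was higher and 3 were lower at an unadjusted p under 0.05, against 7.8% and 5.78% of all genes. The part of either list in the complement values was not tested. The 6 neutrophil markers summed to 0.548 to 2.62 CPM, with the defining gene Ly6g at 0 in control-FMT, busulfan and control.

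**Figure D1:**
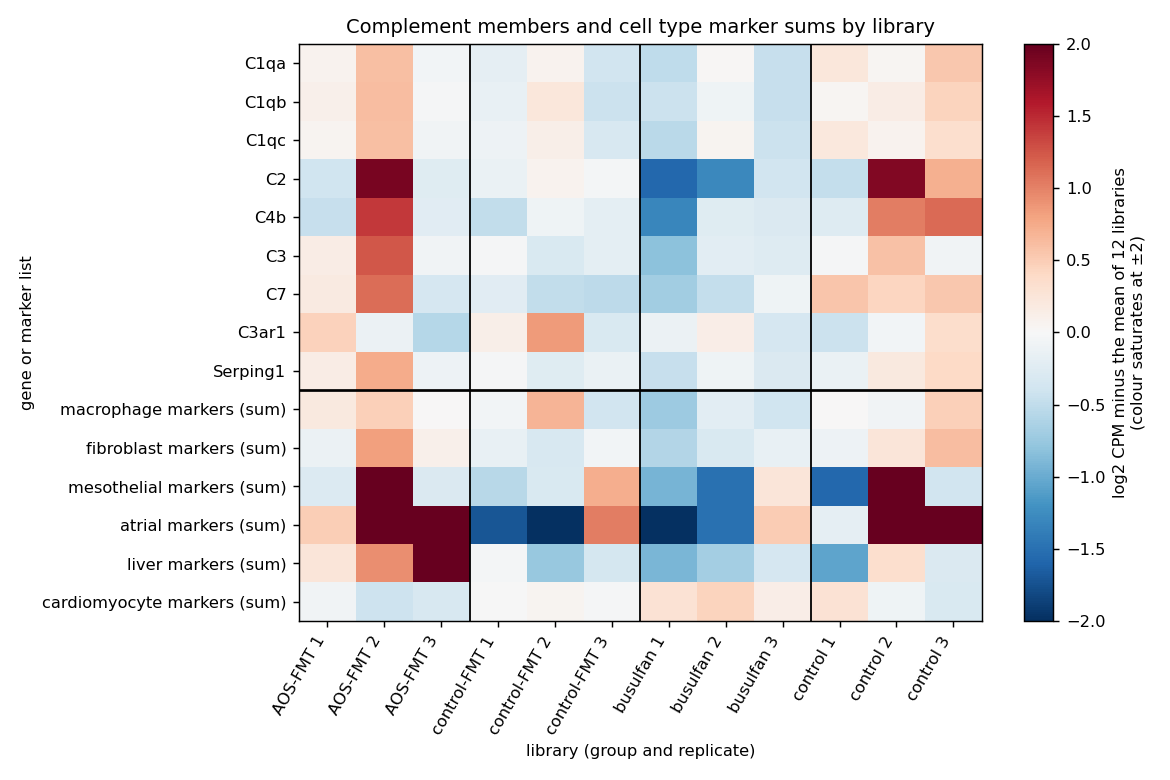
Heat map of log2 CPM minus the mean of the 12 libraries for the 9 complement genes (upper rows) and for the summed CPM of 6 lists of cell type markers (lower rows), with a column for each library and black lines between the groups. AOS-FMT replicate 2 is red in 8 of 9 complement rows and busulfan replicate 1 is at its lowest in 7, and the mesothelial and atrial rows span a wider range than the complement rows.

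Levels were compared between genes on the deposited TPM values, which are scaled for transcript length. Serping1, which codes for the C1 inhibitor, the main brake on the first steps of the cascade, was the most abundant of the 9, at a mean of 255 TPM over the 12 libraries (range 169.8 to 433). C1qc followed with a mean of 188 TPM (range 119 to 291), C1qa with 174 TPM (range 113 to 269) and C1qb with 132 TPM (range 90.3 to 206). C3 averaged 74.2 TPM (range 38.8 to 164) and C7 23.3 TPM (range 12.7 to 49.8). C4b averaged 10.9 TPM (range 3.59 to 26.2), C3ar1 3.58 TPM (range 2.07 to 6.32) and C2 2.19 TPM (range 0.520 to 6.46). Although the ranges of all neighbours in this order overlapped, the order held within each of the 12 libraries for 6 of the 8 neighbouring pairs. The exceptions were C1qc over C1qa, in 11 of 12 libraries, and C3ar1 over C2, in 10 of 12. Every library carried more C1q transcript than C3, and more C3 than C4b or C2.

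**Figure D2:**
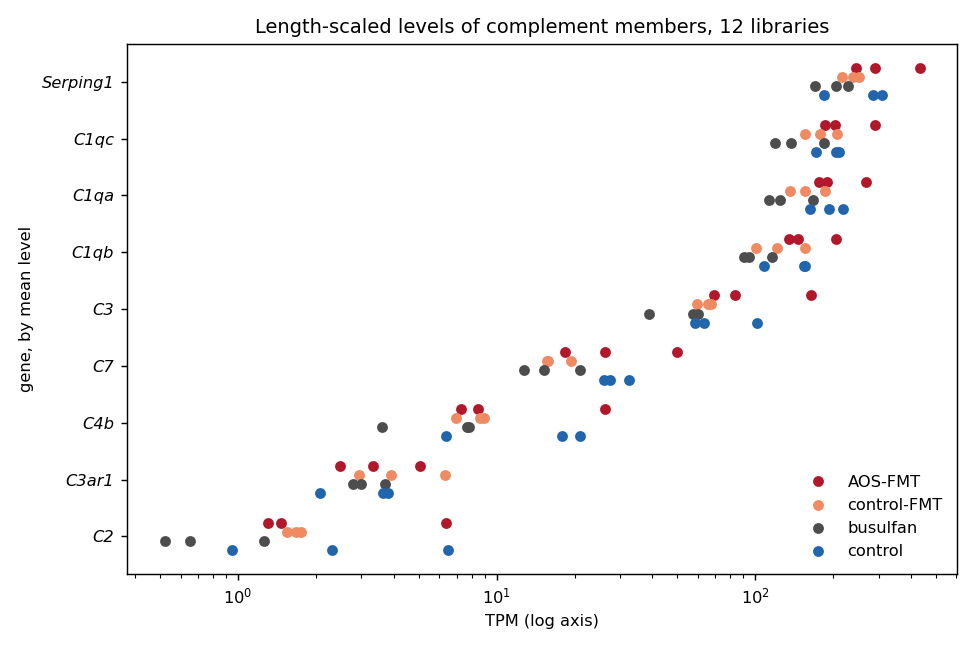
Deposited TPM (log axis) of the 9 complement genes, 1 point for each of the 12 libraries, coloured by group and ordered by mean level. Serping1 and the C1q genes lie highest and C3ar1 and C2 lowest, and C2 spreads widest, over 0.520 to 6.46 TPM.

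The C1q chains were higher in AOS-FMT hearts than in busulfan hearts and lower in busulfan hearts than in control hearts, by similar amounts, and no difference passed the test. C1qa had 116, 167 and 106 CPM in the AOS-FMT libraries, 96.7, 116 and 83.9 CPM in control-FMT, 77.5, 112 and 80.2 CPM in busulfan and 128, 113 and 159 CPM in control. In CPM the busulfan values of C1qa all lay below the control values, while busulfan replicate 2 overlapped the AOS-FMT range. For the second chain, C1qb had 91.4, 131 and 84.1 CPM in the AOS-FMT libraries, 77.4, 99.6 and 63.6 CPM in control-FMT, 63.7, 80.1 and 62.3 CPM in busulfan and 87.9, 94.5 and 116 CPM in control. All 3 AOS-FMT values and all 3 control values of C1qb lay above all 3 busulfan values in CPM. For the last chain, C1qc had 119.8, 175 and 109 CPM in the AOS-FMT libraries, 107, 125 and 92.5 CPM in control-FMT, 78.9, 120.1 and 85.0 CPM in busulfan and 133, 120.5 and 146 CPM in control. As with C1qa, the busulfan values of C1qc lay below control but overlapped AOS-FMT in CPM. Against busulfan, the log2 fold changes in AOS-FMT were 0.53 ± 0.20 (SE) for C1qa, 0.57 ± 0.20 for C1qb and 0.51 ± 0.20 for C1qc (edgeR adjusted p = 0.306, 0.296 and 0.308). Against control, those in busulfan were -0.57 ± 0.20, -0.53 ± 0.20 and -0.49 ± 0.20 in the same order of genes (edgeR adjusted p = 0.344, 0.351 and 0.386). These comparisons share the 3 busulfan libraries. Without AOS-FMT replicate 2 the fold changes of AOS-FMT over busulfan were 0.31, 0.36 and 0.28.

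The 3 chains kept close to a constant ratio although their level differed more than 2-fold between libraries. Their summed TPM ranged from 322 to 766, whereas the ratio of C1qa to C1qc stayed between 0.872 and 1.06, that of C1qb to C1qc between 0.626 and 0.760, and that of C1qa to C1qb between 1.19 and 1.502. Macrophage markers, a list of 15 genes without complement members and with no gene at 0 in any group, lay in the same direction as C1q between these groups. Their summed level was 584 to 802 CPM in AOS-FMT, 445 to 931 CPM in control-FMT, 349 to 500.2 CPM in busulfan and 549 to 802 CPM in control. Of the 15, 13 were higher in AOS-FMT than in busulfan and 13 lower in busulfan than in control, and 0 were called by edgeR in either comparison. At an unadjusted p under 0.05 by edgeR, 8 were higher in the first comparison, against 7.8% of all genes. In the second, 6 were lower and 1 higher, against 5.78% and 5.54% of all genes. Summed C1q CPM, as a percentage of the summed macrophage markers, was 49.2, 59.0 and 51.4 in AOS-FMT, 50.4, 36.6 and 53.9 in control-FMT, 63.1, 62.4 and 51.7 in busulfan and 59.6, 59.8 and 52.5 in control. The lowest of these percentages belonged to control-FMT replicate 2, which held 67.8 CPM of the macrophage gene Cd68, against 28.9 and 21.1 CPM in the other control-FMT libraries. Other genes of the list went the other way in that library. Cd163 had 0.982 CPM there against 5.80 and 5.78 CPM, and Timd4 1.31 against 2.82 and 3.02 CPM. Folr2 had 13.3 CPM against 20.9 and 15.3 CPM. With the mean log2 level of the macrophage list as a covariate, the fold changes of C1qa, C1qb and C1qc were -0.21, -0.17 and -0.18 in AOS-FMT over busulfan and 0.26, 0.31 and 0.27 in busulfan over control.

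**Figure D3:**
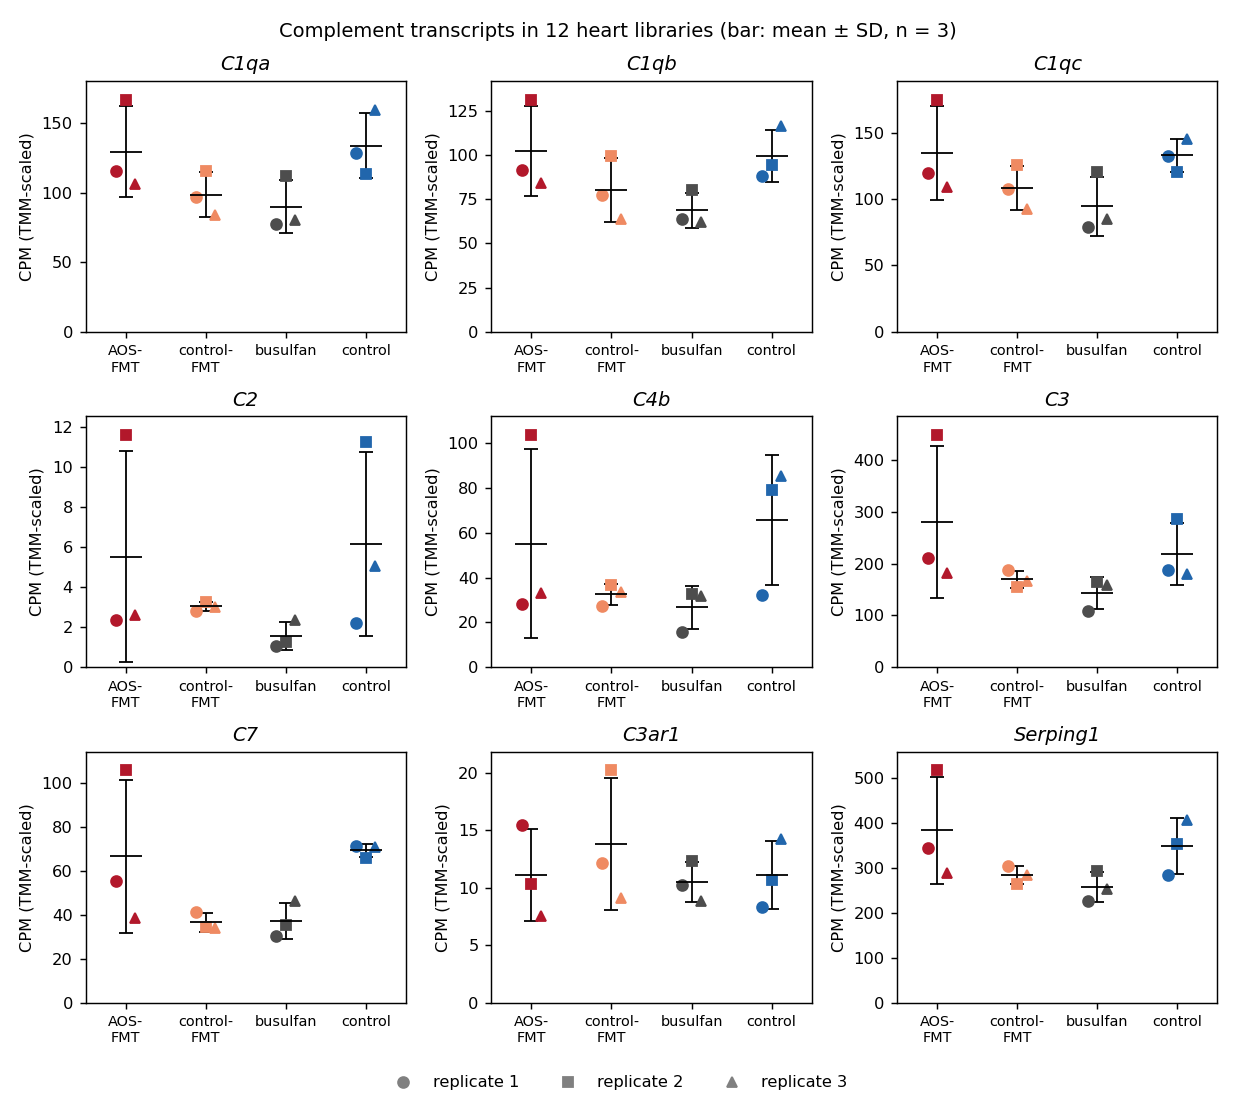
CPM of the 9 complement genes in the 12 libraries, with a panel for each gene and the 4 groups along the horizontal axis; symbols mark the replicate number, and black bars give the mean and SD of 3 libraries. In 8 panels the highest point is AOS-FMT replicate 2, and in the C2 panel control replicate 2 stands nearly as high.

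C2 and C4b, whose products together form the classical C3 convertase, varied most among the 9 genes. C2 had 2.35, 11.6 and 2.63 CPM in the AOS-FMT libraries, 2.82, 3.27 and 3.02 CPM in control-FMT, 1.04, 1.27 and 2.37 CPM in busulfan and 2.23, 11.2 and 5.08 CPM in control. The levels of C2 above 5 CPM were those of AOS-FMT replicate 2 and control replicates 2 and 3, and AOS-FMT replicate 3 exceeded the highest busulfan library by little. C4b had 28.3, 104 and 33.1 CPM in the AOS-FMT libraries, 27.5, 36.5 and 33.7 CPM in control-FMT, 15.8, 32.7 and 31.8 CPM in busulfan and 32.4, 78.9 and 85.6 CPM in control. The same 3 libraries were the highest for C4b, and the other 9 lay between 15.8 and 36.5 CPM. In AOS-FMT over busulfan the log2 fold change was 1.83 ± 0.72 for C2 and 1.05 ± 0.56 for C4b (edgeR adjusted p = 0.318 and 0.417). In busulfan over control it was -1.98 ± 0.72 for C2 and -1.30 ± 0.56 for C4b (edgeR adjusted p = 0.355 and 0.430). Without AOS-FMT replicate 2 the values of AOS-FMT over busulfan were 0.68 for C2 and 0.21 for C4b. The atrial markers were at their highest in AOS-FMT replicates 2 and 3 and control replicates 2 and 3, and the mesothelial markers in AOS-FMT replicate 2 and control replicate 2. With the atrial score as a covariate the values of AOS-FMT over busulfan were 0.59 for C2 and 0.12 for C4b, and those of busulfan over control were -0.75 and -0.40. The part of mesothelial cells was not tested. C4b counts were not whole in 11 of 12 libraries, by at most 0.0900 of a count, while the other 8 members had whole counts throughout. C4a counts were not whole in the same number of libraries, so the level of C4b carries the uncertainty of how reads were divided between near copies. C4a itself had 0.670, 0.452 and 1.83 CPM in AOS-FMT and at most 0.382 CPM in the other groups. These levels amount to few counts a library, and C4a did not pass the filter on low counts and was not tested. Its highest level was in AOS-FMT replicate 3, the library richest in liver transcripts.

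C3, the component at which all activation routes meet, was higher in every AOS-FMT library than in every busulfan library. C3 had 211, 448 and 182 CPM in the AOS-FMT libraries, 187, 154 and 167 CPM in control-FMT, 108, 164 and 158 CPM in busulfan and 188, 287 and 181 CPM in control. In CPM busulfan also lay below all 3 control values, and AOS-FMT replicate 2 stood at more than 1.5 times any other library. The log2 fold change of C3 was 0.97 ± 0.32 in AOS-FMT over busulfan (a 1.96-fold difference, edgeR adjusted p = 0.296) and -0.61 ± 0.32 in busulfan over control (edgeR adjusted p = 0.501). Without AOS-FMT replicate 2 the value of AOS-FMT over busulfan was 0.46. Liver markers, all 16 detected in every group, were also higher in AOS-FMT than in busulfan (16 of 16). Of them 15 had an unadjusted p under 0.05 by edgeR, against 7.8% of all genes higher, and 0 were called. Their sums were 152, 244 and 962 CPM in AOS-FMT, 125, 75.6 and 101 CPM in control-FMT, 68.1, 80.2 and 101 CPM in busulfan and 62.1, 163 and 105 CPM in control. In busulfan over control, where C3 was lower, 12 of the 16 were higher (median 2.17). In AOS-FMT over control 15 were higher (median 5.52) and edgeR called 0. Of these, 13 had an unadjusted p under 0.05 by edgeR, against 5.43% of all genes higher. The library richest in liver transcripts was AOS-FMT replicate 3, where C3 was the lowest of the AOS-FMT libraries and Alb, which codes for albumin, stood at 302 CPM. With the liver score as a covariate the C3 value of AOS-FMT over busulfan was 1.21 (edgeR adjusted p = 0.757). The part of liver RNA in the C3 values was not tested.

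C7, a component of the membrane attack complex, was lower in every busulfan and control-FMT library than in every control library. C7 had 55.5, 106 and 38.6 CPM in the AOS-FMT libraries, 41.5, 34.6 and 33.8 CPM in control-FMT, 30.3, 35.2 and 46.2 CPM in busulfan and 71.6, 66.1 and 70.9 CPM in control. The control values of C7 lay within 6 CPM of each other and above all 6 busulfan and control-FMT values, and the AOS-FMT values covered nearly the whole range. The log2 fold change was -0.90 ± 0.30 in busulfan over control and -0.92 ± 0.30 in control-FMT over control (edgeR adjusted p = 0.341 and 0.448). These comparisons share the control libraries. AOS-FMT over busulfan gave 0.84 ± 0.30 and AOS-FMT over control-FMT 0.87 ± 0.30 (edgeR adjusted p = 0.302 and 0.752), or 0.34 and 0.36 without AOS-FMT replicate 2. Fibroblast markers, 12 of 12 detected in every group, summed to 5299, 10149.8 and 6208 CPM in AOS-FMT, 5214, 4635 and 5575 CPM in control-FMT, 3846, 4643 and 5201 CPM in busulfan and 5364, 6823 and 8809 CPM in control. Of them 12 were higher in AOS-FMT than in busulfan and 11 lower in busulfan than in control, with 0 called by edgeR. At an unadjusted p under 0.05 by edgeR, 10 were higher and 7 lower in these comparisons, against 7.8% and 5.78% of all genes. The part of the fibroblast markers in the C7 values was not tested.

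Serping1, the inhibitor of the C1 proteases, was also higher in AOS-FMT than in busulfan and lower in busulfan than in control on average. Serping1 had 344, 516 and 288 CPM in the AOS-FMT libraries, 303, 263 and 283 CPM in control-FMT, 225, 293 and 252 CPM in busulfan and 282, 353 and 407 CPM in control. In CPM AOS-FMT replicate 2 and control replicate 3 were the highest libraries and busulfan replicate 1 the lowest, and busulfan overlapped both AOS-FMT and control. The log2 fold change of Serping1 was 0.58 ± 0.20 in AOS-FMT over busulfan and -0.44 ± 0.20 in busulfan over control (edgeR adjusted p = 0.296 and 0.432). It was 0.31 in AOS-FMT over busulfan without AOS-FMT replicate 2. The summed fibroblast markers were highest in the same 2 libraries as Serping1 and lowest in the same library, and their part was not tested.

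C3ar1, the receptor for the C3a fragment on myeloid cells, differed little between the groups. C3ar1 had 15.4, 10.3 and 7.53 CPM in the AOS-FMT libraries, 12.2, 20.2 and 9.06 CPM in control-FMT, 10.3, 12.3 and 8.88 CPM in busulfan and 8.30, 10.7 and 14.2 CPM in control. The highest level belonged to control-FMT replicate 2, the library with the most Cd68 but the least Cd163, Timd4 and Folr2, and the ranges of all 4 groups overlapped. Its log2 fold changes were 0.077 ± 0.32 in AOS-FMT over busulfan, -0.080 ± 0.32 in busulfan over control and 0.40 ± 0.32 in control-FMT over busulfan (edgeR adjusted p = 0.929, 0.956 and 0.999). Its sign changed with the library left out, with values of -0.23 to 0.29 in AOS-FMT over busulfan and -0.26 to 0.12 in busulfan over control.

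**Figure D4:**
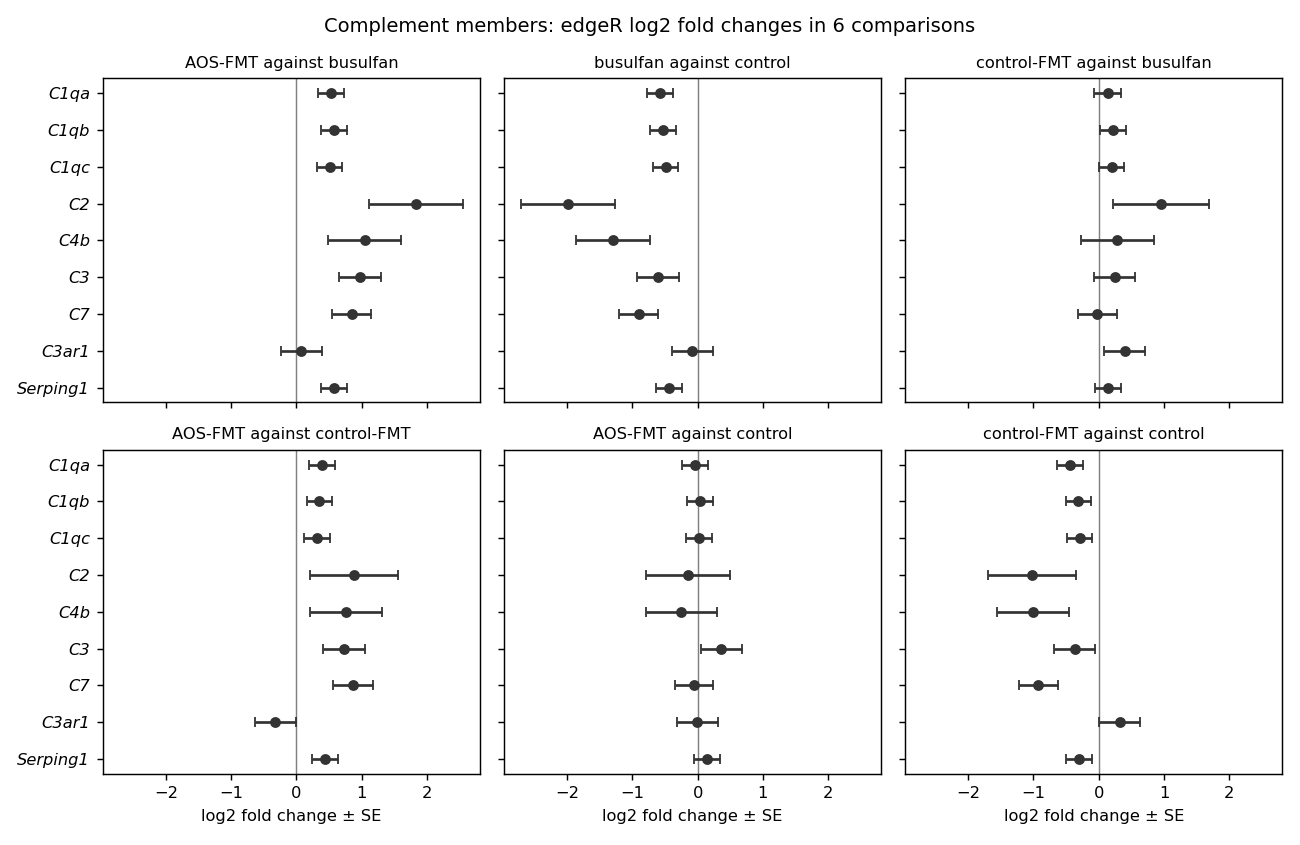
Log2 fold changes (points) with standard errors (bars) from edgeR for the 9 complement genes in 6 comparisons. All 9 points lie right of 0 in AOS-FMT against busulfan and left of 0 in busulfan against control, the points of AOS-FMT against control lie between -0.25 and 0.36, and none of the 54 differences was called.

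AOS-FMT hearts had a higher mean level than busulfan hearts of all 9 members, as they had of 50.7% of all genes, and none passed the test. edgeR called 0 of the 9 at an adjusted p under 0.05, as it called 0.0445% of all tested genes. The smallest adjusted p among the 9 was 0.296. At an unadjusted p under 0.05 the test found 7 of 9 higher, against 7.8% of all genes, and C3 and C1qb had groups without overlap in CPM, against 10.3% of all genes higher without overlap. On the deposited TPM, C1qa, C1qc, C2 and Serping1 lay apart as well. Their lowest AOS-FMT values were 175.69, 186.53, 1.3 and 246.14 TPM, against highest busulfan values of 166.72, 184.84, 1.26 and 227.48 TPM. The share of all genes apart on TPM was not computed. DESeq2 also called 0 (0.971% of all genes), with 7 at an unadjusted p under 0.05 (14.4% of all genes) and a smallest adjusted p of 0.0724. The median log2 fold change was 0.58 over the members and 0.0049 over all genes. The counts rested in part on 2 libraries. Without AOS-FMT replicate 2 the median was 0.31 and 0 members had an unadjusted p under 0.05, while all 9 fold changes stayed above 0. Without busulfan replicate 1 the number at an unadjusted p under 0.05 was 2. With the liver, atrial and macrophage scores as covariates, 1 at a time, it was 7, 1 and 0.

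Busulfan hearts had a lower mean level than control hearts of all 9 members, as they had of 52.3% of all genes. edgeR called 0 of 9, and 0.0593% of all genes, and the smallest adjusted p was 0.341. At an unadjusted p under 0.05 there were 7 of 9 lower, against 5.78% of all genes. The groups did not overlap in CPM for 5 members, C1qa, C1qb, C1qc, C3 and C7, against 6.38% of all genes lower without overlap. Overlap was judged on CPM in every comparison. On the deposited TPM, C7 stayed apart, while C1qa, C1qb, C1qc and C3 overlapped. Their highest busulfan values were 166.72, 116.34, 184.84 and 60.28 TPM, against lowest control values of 162.14, 107.95, 172.4 and 58.74 TPM. DESeq2 called 0 (0.882% of all genes) and had 8 at an unadjusted p under 0.05 (11.9% of all genes). The members' median log2 fold change was -0.57, and that of all genes -0.012. The number of members at an unadjusted p under 0.05 was 1 without busulfan replicate 1, 2 without busulfan replicate 3, 4 without control replicate 2 and 2 without control replicate 3. It was 0 with the atrial, the liver or the macrophage score as a covariate.

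Control-FMT and busulfan hearts overlapped in 8 of the 9 members, and the mean was higher in control-FMT for 8, against 49.9% of all genes. In control-FMT over busulfan edgeR called 0 of 9 and 0% of all genes, with 0 of 9 at an unadjusted p under 0.05 against 2.65% of all genes. DESeq2 called 0 of 9 (0.0148% of all genes) and had 0 at an unadjusted p under 0.05 (2.57% of all genes). The median was 0.22 over the members and -0.00036 over all genes, and the member values ran from -0.022 for C7 to 0.95 for C2. C2 was the only member without overlap, higher in all 3 control-FMT libraries, against 5.41% of all genes. In control-FMT over control edgeR called 0 of 9 members and 0% of all genes, and C7 and C1qa, at -0.92 and -0.44, were lower at an unadjusted p under 0.05, against 3.74% of all genes. C7 alone had groups without overlap, against 4.71% of all genes lower without overlap. DESeq2 called 0 there as well (0.66% of all genes), with 2 at an unadjusted p under 0.05 (8.71% of all genes). Of the 9 values 8 were below 0, against 52.6% of all genes, with a median of -0.37 (-0.012 over all genes), and C3ar1 stood at 0.32. The number at an unadjusted p under 0.05 was 4 without AOS-FMT replicate 2, a library of neither group, and 1 without any of AOS-FMT replicate 1, control-FMT replicate 1, control-FMT replicate 3, busulfan replicate 1, busulfan replicate 3 and control replicate 3. With the liver, atrial or macrophage score as a covariate, 0 members were lower at an unadjusted p under 0.05, and with the liver score 1 was higher, C3ar1.

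AOS-FMT hearts had higher mean levels than control-FMT hearts of 8 of the 9 members, against 50.6% of all genes, and none passed the test. C3ar1 was the exception, at -0.32, and the median was 0.44 against 0.0024 over all genes. edgeR called 0 of 9 and 0.0297% of all genes, and C7, C3 and Serping1 had an unadjusted p under 0.05, at 0.87, 0.73 and 0.44, against 3.88% of all genes. DESeq2 called 0 (0.237% of all genes), with 3 at an unadjusted p under 0.05 (6.49% of all genes). The groups overlapped in all 9 members, where 13.8% of all genes had groups without overlap. Without AOS-FMT replicate 2 the median was 0.13 and 0 members had an unadjusted p under 0.05. That number was 5 without AOS-FMT replicate 3 and 1 without control-FMT replicate 1, control-FMT replicate 3, busulfan replicate 2 or busulfan replicate 3. With the liver, atrial and macrophage scores as covariates it was 6, 0 and 0.

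AOS-FMT and control hearts overlapped in all 9 members, where 10.4% of all genes had groups without overlap. The log2 fold changes ran from -0.25 ± 0.54 for C4b to 0.36 ± 0.32 for C3, with a median of -0.0030 over the members and -0.0055 over all genes. edgeR called 0 of 9 and had 0 at an unadjusted p under 0.05, against 0.0815% and 8.87% of all genes. DESeq2 likewise had 0 and 0, against 0.904% and 8.68% of all genes. Mean levels were 129.6 ± 32.7 CPM in AOS-FMT and 134 ± 23.4 CPM in control for C1qa (SD, n = 3 each). For C3 they were 280.4 ± 146 CPM in AOS-FMT and 218 ± 59.4 CPM in control. Without AOS-FMT replicate 2 the median was -0.22 and 3 members were lower in AOS-FMT at an unadjusted p under 0.05. Without AOS-FMT replicate 1 the median was 0.096, with 8 of 9 above 0, and without AOS-FMT replicate 3 it was 0.18, with 9 of 9 above 0.

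Of 48 other complement genes, 47 were in the file and 32 passed the filter on low counts. In AOS-FMT over busulfan 24 of the 32 were above 0, with a median of 0.51, and edgeR called 0. At an unadjusted p under 0.05, 11 of the 32 were higher and 3 lower, against 7.8% and 5.85% of all genes. DESeq2 called 1, Cfi, which codes for factor I, the protease that inactivates C3b and C4b. Cfi had 0.587, 3.94 and 5.85 CPM in the AOS-FMT libraries, 0.627, 2.54 and 1.12 CPM in control-FMT, 0.261, 0.424 and 0.254 CPM in busulfan and 0.599, 1.98 and 1.19 CPM in control. Every AOS-FMT value of Cfi lay above every busulfan value, and the log2 fold change was 3.43 ± 0.82 (edgeR adjusted p = 0.234, and DESeq2 adjusted p = 0.0101). Without AOS-FMT replicate 1, the lowest of the 3, edgeR called it at an adjusted p of 0.0340. The busulfan levels of Cfi amount to few counts a library. Its highest level was in AOS-FMT replicate 3, the library richest in liver transcripts, and the part of liver RNA in Cfi was not tested.

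Genes of the alternative pathway and of the C1 proteases were the next by p in that comparison. Cfb, which codes for factor B, the counterpart of C2 in the alternative pathway, had 9.56, 25.0 and 10.7 CPM in AOS-FMT and 5.48, 7.21 and 7.10 CPM in busulfan (1.20 ± 0.34). Cfp, which codes for properdin, the stabiliser of the alternative convertase, had 15.01, 24.1 and 13.5 CPM in AOS-FMT and 10.7, 11.5 and 8.46 CPM in busulfan (0.78 ± 0.22). C1s1, a protease of the C1 complex, had 34.3, 59.4 and 37.2 CPM in AOS-FMT and 23.7, 23.4 and 24.3 CPM in busulfan (0.88 ± 0.25). The groups did not overlap in any of these 3 genes, and edgeR gave each an adjusted p of 0.279. C1ra, which codes for the partner protease of C1s, stood at 0.74 ± 0.22 and the C5a receptor gene C5ar1 at 0.76 ± 0.30. C5ar1 was as high in control-FMT over busulfan, at 0.80 ± 0.30, and stood at -0.043 ± 0.29 in AOS-FMT over control-FMT (edgeR adjusted p = 0.999 and 0.984). Near copies of C1ra and C1s1, C1rb and C1s2, could take part of their reads. The cell surface regulators Cd55 and Cd59a stood at 0.48 ± 0.25 and -0.14 ± 0.10, Clu, which codes for clusterin, at 0.98 ± 0.57, Cfd, which codes for the protease factor D, at 3.25 ± 1.22, and Vsig4, a macrophage receptor for C3 fragments, at 2.49 ± 1.11. The 3 genes lower at an unadjusted p under 0.05, named after their values were seen, were Cd59b, the near copy of Cd59a, at -1.25 ± 0.42, Masp2, a protease of the lectin pathway, at -1.45 ± 0.56, and C1qbp, which codes for a C1q-binding protein, at -0.35 ± 0.16. The groups did not overlap for Cd59b, Masp2 and Masp1, another lectin pathway protease, at -0.32 ± 0.15. Of the 32 genes, 9 were higher and 3 lower without overlap, against 1387 and 1472 of all 13489 genes.

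In busulfan over control, 19 of the 32 were below 0, with a median of -0.13, and edgeR and DESeq2 each called 0. At an unadjusted p under 0.05, 6 were lower and 3 higher by edgeR, against 5.78% and 5.54% of all genes. The smallest p belonged to C6, the terminal component that binds before C7, with 0.261, 0.0849 and 0.0846 CPM in busulfan and 0.685, 0.988 and 1.75 CPM in control (-2.92 ± 0.71, edgeR adjusted p = 0.229). These C6 levels amount to few counts a library. Cfp had 10.7, 11.5 and 8.46 CPM in busulfan and 12.9, 20.4 and 18.8 CPM in control (-0.76 ± 0.22), with no overlap. Vtn, which codes for vitronectin, an inhibitor of the terminal complex, and Cd93 went the other way, at 0.65 ± 0.22 and 0.42 ± 0.15. Vsig4 stood at -3.21 ± 1.12, with 1.13, 1.19 and 2.62 CPM in busulfan and 1.54, 23.6 and 20.8 CPM in control. In the remaining comparisons edgeR called 0 of the 32, with 3 at an unadjusted p under 0.05 in control-FMT over busulfan (2.65% of all genes), 8 in AOS-FMT over control-FMT (6.23% of all genes), 4 in AOS-FMT over control (8.87% of all genes) and 9 in control-FMT over control (8.2% of all genes). DESeq2 called 1 in the last of these, Vsig4, and 0 in the other 3. The log2 fold change of Vsig4 in control-FMT over control was -3.93 by DESeq2 (DESeq2 adjusted p = 0.0439) and -3.91 ± 1.18 by edgeR (edgeR adjusted p = 0.437). Vsig4 had 1.41, 0.245 and 1.38 CPM in control-FMT, few counts a library, and control replicate 1, at 1.54 CPM, lay close to these.

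Likeness between genes was measured as the mean absolute difference of log2 CPM over the 12 libraries, each gene centred on its own mean. The C1q genes were the closest to each other of all 13489 genes, with C1qa and C1qc apart by 0.0492 and C1qb and C1qa by 0.0720, where the median gene was 0.324 away from C1qa. Outside the members, the nearest to C1qa were Ly86 at 0.115 and Ctsc at 0.119, to C1qb Scpep1 at 0.0889 and Npc2 at 0.0984 and to C1qc Scpep1 at 0.0897, followed by Ctsc. Nearest to Serping1 were Medag at 0.0608 and Tgfbi at 0.0950, and to C3 Wdpcp at 0.174 and Ptgis at 0.182. For C4b they were Igfbp6 at 0.203 and Srpx at 0.221, for C2 Capn6 at 0.231 and Tmem119 at 0.242, for C7 Gbp2b at 0.165 and Smarca1 at 0.170 and for C3ar1 Prkcb at 0.158 and Cd33 at 0.170. C2 and C4b were each other's nearest member, at 0.316, while 3168 genes were closer to C3ar1 than its nearest member, C1qc, was.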

How the data were processed

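The authors deposited estimated read counts per gene, TPM and FPKM for each of the 12 libraries, per the file headers, and 94.7% to 95.3% of the estimated counts in a library were whole within 1e-09. Bowtie 0.12.2 and mm10 come from the submitters' processing notes. No source used here names the counting tool or annotation. The deposited TPM served to compare levels between genes, and the FPKM and the authors' group means were not used.

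Estimated counts were rounded, filtered with filterByExpr, scaled by TMM (factors 0.908 to 1.08) and tested by robust quasi-likelihood in edgeR 4.0.16 (R 4.3.3), with all 12 libraries in 1 fit and group as the only term. A call needed an adjusted p (Benjamini-Hochberg, 13489 genes) under 0.05. A standard error is the log2 fold change divided by the square root of the F statistic. The fit was tested on simulated data. Alternatives were DESeq2 1.42.0, other scaling, no filter, fewer samples, a replicate block and scores of atrial, liver and macrophage markers as covariates, each the mean log2 CPM of its list. No 2 replicates of a group were alike within sampling noise (chi-square per degree of freedom 8.88 to 71.5).

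All 9 members were named, with 12 other complement genes, those called, the 4 of smallest p in AOS-FMT against busulfan and in busulfan against control, and the 2 genes nearest to each member; C6, Cfi, Vtn and Cd93 entered by their p. Of the 12, 1 is not reported here. The members, lists and tests were chosen with earlier results of these data known.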

Additional observations from a re-analysis of the deposited data

How the results depend on the processing

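No setting gave a called member: the count was 0 of 9 in all 6 comparisons under each alternative and without each library, with a smallest adjusted p of 0.0724, from DESeq2. With edgeR the smallest was 0.0755, without AOS-FMT replicate 2. Of the 54 fold changes of members, none changed sign under DESeq2, RLE scaling, no filter or only the groups compared, and 1 did with the replicate block. The atrial, liver and macrophage covariates changed 8, 8 and 35 signs, of which 6, 5 and 29 moved by more than the SD between replicates. With the macrophage covariate the values that turned by more than this SD in AOS-FMT against busulfan were C3ar1 at -0.59, Serping1 at -0.12, C1qc at -0.18, C1qa at -0.21, C2 at -0.14, C1qb at -0.17 and C4b at -0.87. Those in busulfan against control were C3ar1 at 0.73, Serping1 at 0.35, C3 at 0.24, C1qc at 0.27, C1qa at 0.26, C1qb at 0.31 and C4b at 0.74. Those in control-FMT against busulfan were C1qa at -0.15 and C1qb at -0.081. Those in AOS-FMT against control-FMT were Serping1 at -0.014, C1qc at -0.11, C1qa at -0.056, C2 at -0.44, C1qb at -0.091 and C4b at -0.53. Those in control-FMT against control were Serping1 at 0.24, C3 at 0.20, C1qc at 0.21, C1qa at 0.11, C2 at 0.25, C1qb at 0.23 and C4b at 0.40. With the atrial covariate the values that turned by more than this SD in AOS-FMT against control-FMT were C2 at -0.61 and C4b at -0.32. Those in control-FMT against control were C3ar1 at -0.14, C3 at 0.11, C2 at 0.44 and C4b at 0.045. With the liver covariate the values that turned by more than this SD in AOS-FMT against control-FMT were C3ar1 at 0.30. Those in AOS-FMT against control were C3ar1 at 1.01, C1qa at 0.44, C7 at 0.67 and C4b at 0.47. The cause was not tested.

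The median of the members moved beyond the spread between replicates with the macrophage covariate, to -0.17 in AOS-FMT against busulfan, 0.27 in busulfan against control, -0.091 in AOS-FMT against control-FMT and 0.23 in control-FMT against control, and with the liver covariate to 0.53 in AOS-FMT against control. Leaving out each library in turn gave medians of 0.31 to 0.74 in AOS-FMT against busulfan, -0.72 to -0.44 in busulfan against control, 0.073 to 0.35 in control-FMT against busulfan, 0.13 to 0.60 in AOS-FMT against control-FMT, -0.22 to 0.18 in AOS-FMT against control and -0.50 to -0.30 in control-FMT against control. Leaving out AOS-FMT replicate 2 turned 4 values beyond that spread, and over all libraries left out these ranged as follows: C2 in AOS-FMT against control-FMT -0.28 to 1.23, C4b in AOS-FMT against control-FMT -0.083 to 1.07, Serping1 in AOS-FMT against control -0.15 to 0.31 and C3 in AOS-FMT against control -0.16 to 0.60.

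Over all genes edgeR called 6 in AOS-FMT against busulfan, 8 in busulfan against control, 0 in control-FMT against busulfan, 4 in AOS-FMT against control-FMT, 11 in AOS-FMT against control and 0 in control-FMT against control. In that order DESeq2 called 131, 119, 2, 32, 122 and 89, the replicate block 14, 10, 0, 6, 25 and 7, no filter 9, 8, 0, 5, 14 and 3, only the groups compared 0, 0, 2, 0, 6 and 0, the atrial covariate 0, 1, 0, 0, 23 and 4, the macrophage covariate 0, 0, 0, 0, 20 and 0 and the liver covariate 0 throughout. In the same order, the counts with 1 library left out ran from 0 to 20, 0 to 14, 0 to 1, 0 to 4, 1 to 17 and 0 to 7. With the replicate block 0 members were called and the median was 0.56 in AOS-FMT against busulfan and -0.58 in busulfan against control. The labels do not say that equal numbers pair libraries. Of same-numbered pairs, 10 of 18 correlated above 0.1 in their deviations from group means (median 0.12). Of pairs with other numbers, 8 of 36 did (median -0.043). A library's best match among the 3 libraries of another group had its own number in 19 of 36 cases. C2 and C3ar1 rest on the fewest counts of the members, with C2 as low as 1.04 CPM.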
